A study of Mus musculus with 27 samples.

Results

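STAT3, STAT5A and STAT5B are transcription factors that cytokine receptors switch on. Their genes were followed together with Jak2, which codes for a kinase that phosphorylates them, and with 5 genes that they induce. These 5 are Socs1, Socs2, Socs3 and Cish, whose products damp the same receptors, and Pim1, which codes for a serine/threonine kinase that favours survival and growth. The 9 genes were found through the RefSeq accession of each array probe, and they make up 9 of the 37208 genes or transcripts on the arrays, 20145 of which had a gene symbol. All 9 were well above background on all 27 arrays.

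All cells came from a mouse embryonic stem cell (ESC) line of the A2lox type that carries a doxycycline (DOX)-inducible, Flag-tagged dominant-negative FOS (dnFOS) inserted at the Hprt locus, so the untreated controls carry the cassette too. How many clones the arrays came from is not given in the sources used here. The dnFOS peptide binds JUN proteins and keeps AP-1 dimers off DNA. The stem cells were grown with LIF on mouse embryonic feeder cells, differentiated into embryoid bodies, and sorted for FLK1, the VEGF receptor that marks the hemangioblast stage. FLK1+ cells were then placed in blast culture, which contained VEGF and IL-6. Untreated FLK1+ cells formed 1 group. In 6 further populations, untreated cells were compared with cells given 1 µg/ml DOX. These were complete cultures after 5 h (FLK1+ 5h) and after 1 day (d1 BC), and 4 populations sorted after 2 days: smooth muscle cells (SM), early hemogenic endothelium (HE1, KIT+ TIE2+ CD41-), late hemogenic endothelium (HE2, KIT+ TIE2+ CD41+) and hematopoietic progenitors (HP, KIT+ TIE2- CD41+). There were 13 groups of 2 arrays, except that untreated SM had 3. The labels do not say that the replicates came from separate cultures, so p-values measure only the spread between these samples.

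Cytokines such as IL-6 and LIF act through receptors that share the gp130 chain and lead mainly to STAT3, whereas erythropoietin and IL-3 use receptors that bind JAK2 and lead mainly to STAT5. Phosphorylated STATs dimerise, enter the nucleus and bind a palindrome with the core TTCNNNGAA. Among the genes they induce are those of the SOCS family, which then bind the receptors or the JAKs and shut the signal down, so that SOCS and CISH transcripts are used as a readout of recent STAT activity. Socs3 is the feedback gene linked most closely to STAT3, and Cish and Socs2 are linked most closely to STAT5. In blood formation STAT5 supports erythroid and megakaryocytic progenitors. STAT3 transmits the LIF signal that keeps mouse ESCs undifferentiated. Arrays report transcript levels and not phosphorylation, so none of the values given here measure STAT activity.

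Promoter windows of 250 bases before to 50 bases after an annotated start site (RefSeq, build GRCm38.p6) were given for 8 of the 9 genes, 11 windows in all, and none was given for Socs2. The STAT core TTCNNNGAA, which reads the same on either strand, was found in 2 of the 11 windows, against 8.3% of all 32851 windows. The 2 windows belong to Socs3 and Cish, the genes called lower from HE1 to HE2 with the slide as a fixed block, and they are shown for that reason with the core in capitals. Socs3 lies on the minus strand at chr11:117969317-117969616 with 1 core that begins 154 bases before the start site. Cish lies on the plus strand at chr9:107296409-107296708 with 2 cores, of which one begins at the start site itself and the other 11 bases after it. The AP-1 core TGANTCA, also read on both strands, was found in 7.81% of all windows and in 0 of the 11, so it overlaps no STAT core there. A match describes these letters only, and a missing match says nothing about sites outside the window.
Socs3: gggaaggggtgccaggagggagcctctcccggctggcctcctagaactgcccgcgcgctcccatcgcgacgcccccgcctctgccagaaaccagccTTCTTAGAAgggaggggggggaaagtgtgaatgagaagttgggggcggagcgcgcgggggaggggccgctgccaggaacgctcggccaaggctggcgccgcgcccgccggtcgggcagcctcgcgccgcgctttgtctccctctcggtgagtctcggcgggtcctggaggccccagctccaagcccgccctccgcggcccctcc
Cish: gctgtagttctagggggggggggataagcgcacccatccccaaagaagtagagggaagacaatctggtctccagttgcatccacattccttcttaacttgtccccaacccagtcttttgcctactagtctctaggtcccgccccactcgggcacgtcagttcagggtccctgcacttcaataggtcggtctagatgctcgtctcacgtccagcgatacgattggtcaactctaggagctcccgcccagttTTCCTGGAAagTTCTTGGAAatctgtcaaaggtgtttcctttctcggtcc

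Levels are given as the log2 of a probe's signal minus the log2 of the array's 75th percentile, so that 0 is the level below which 75 percent of probes fall, and a step of 1 is 2-fold. Levels are not per transcript length and are compared only within a gene, apart from sums over marker genes, in which the brightest probes weigh most. A difference was called when limma's moderated test gave a Benjamini-Hochberg adjusted p under 0.05 over all genes tested and the change was at least 2-fold, and an F test was called on the adjusted p alone. The arrays lay on 5 slides, here A to E. Slide A held both FLK1+ arrays and 1 array of each FLK1+ 5h, d1 BC and untreated or DOX SM group, slide C held 1 untreated FLK1+ 5h array, slide D the other arrays of the early cultures apart from that one, and slides B and E held the sorted populations. The 75th percentile of signal ran from 78.8 on untreated HE2 replicate 1 to 732 on untreated FLK1+ 5h replicate 2. The share of probes well above background was 46.8% to 89.6%, the latter on untreated SM replicate 2, which stood apart. Hprt, the locus that holds the cassette, was 2.80 ± 0.22 (SE) higher with DOX on average over the 6 populations (limma, adjusted p = 4.45e-06).

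Defining markers were checked first. Summed linear levels of 5 hematopoietic genes (Kit, Itga2b, Runx1, Gfi1b, Myb) were 2.33 to 2.46 in FLK1+ cells, 14.1 to 16.3 in untreated HE1, 59.1 to 69.9 in HE2 and 94.3 to 110 in HP, with all 5 above background throughout. The sum of 5 smooth muscle genes was 846 to 1790 in untreated SM, 227 to 514 in HE1, 48.7 to 48.8 in HE2 and 42.1 to 223 in HP. In the unsorted d1 BC culture it was 1010 to 1560, so it did not set SM apart from that culture. That of 5 collagen and matrix genes of fibroblasts was 112 to 170 in SM, 40.2 to 72.6 in HE1 and 2.92 to 4.55 in HE2, and that of 8 myeloid genes was 45.3 to 65.1 in HE1, where Spi1 and Fcgr3 were not well above background on any array, and 95.6 to 105 in HP. Endothelial sums were 66.7 to 137 in HE1, 66 to 70.7 in HE2 and 30 to 41.6 in HP. Sums of 6 erythroid genes were 57.1 to 314 in untreated SM and 147 to 249 in HP. Of the 4 pluripotency genes all were above background in FLK1+ cells, where they summed to 19 to 23.4, and their sum in untreated SM ranged from 0.779 to 18.5. In bulk RNA, fewer cells of a type and less RNA per cell cannot be told apart.

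**Figure D1:**
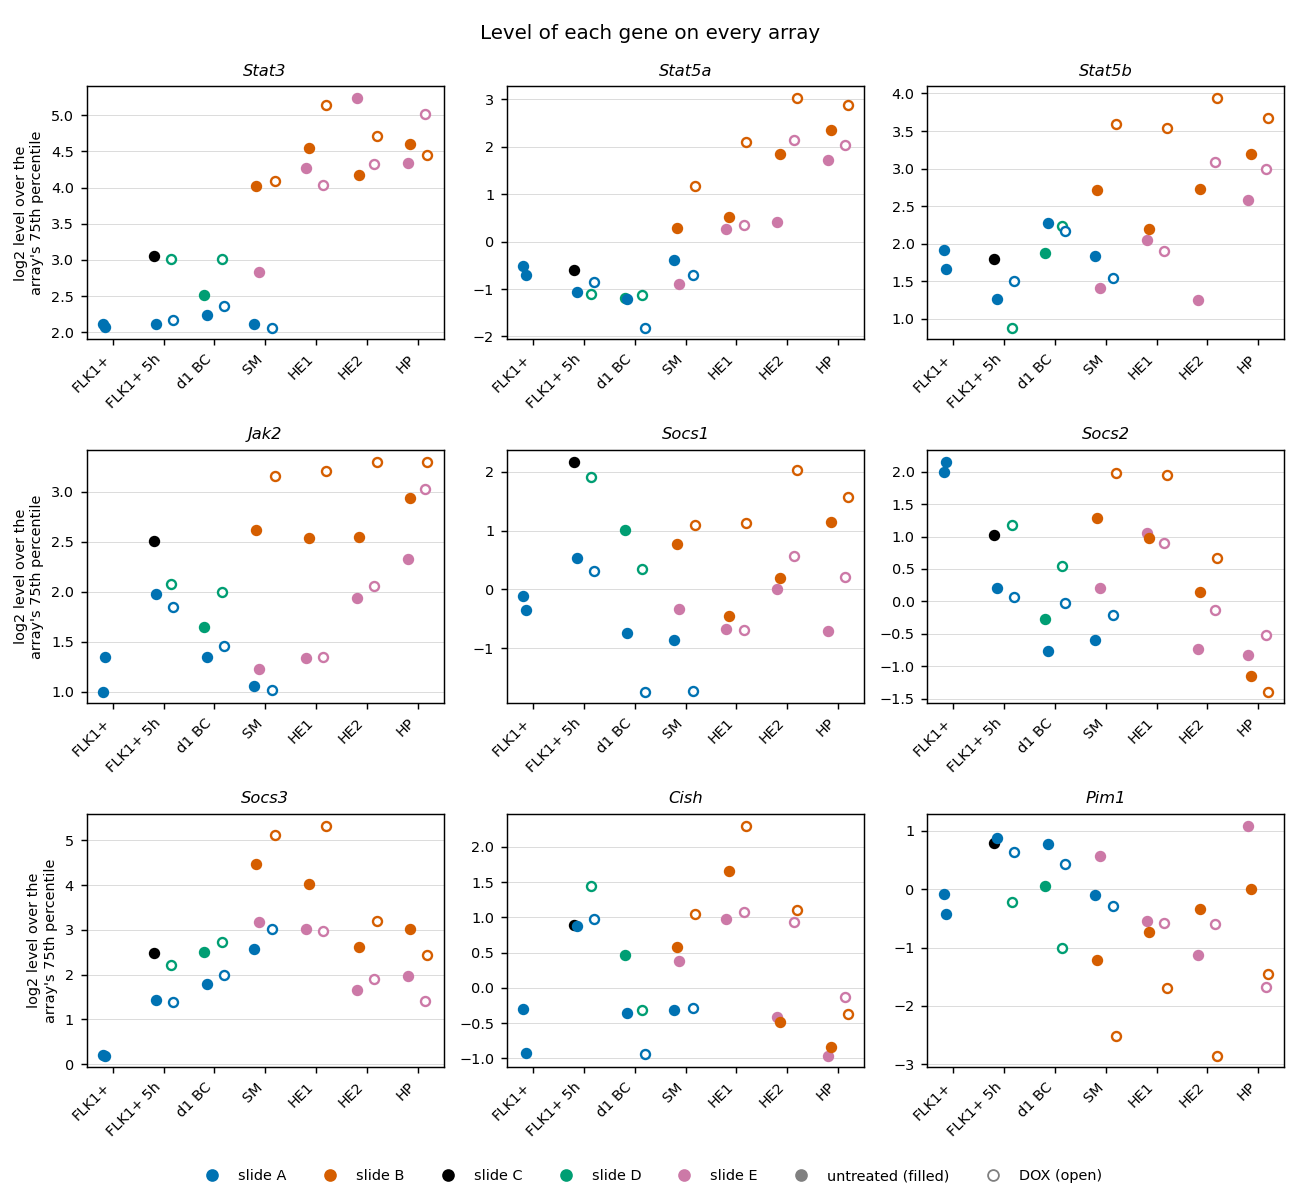
Level of each of the 9 genes on all 27 arrays, as log2 over the array's 75th percentile (vertical axis), by population (horizontal axis); filled points are untreated, open points DOX, and the colour gives the slide. Untreated Stat3 reads 4.17 to 5.24 in HE1, HE2 and HP and 2.07 to 4.02 elsewhere, and Cish and Socs2 lie lower in HP than in HE1.

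Among the 7 untreated populations, an F test across all of them called 4 of the 9 genes, Stat3, Stat5a, Socs2 and Cish, and the same test called 5306 of 27452 genes, or 19.3%. Socs3 missed the threshold with an adjusted p of 0.0649, and Stat5b, Jak2, Socs1 and Pim1 lay between 0.511 and 0.748. With the slide as a block the test again called 4, but Socs3 took the place of Stat3 (19.8% of all genes called). Stat3 was called in each of the 27 fits that left out 1 array and Stat5a in 26 of 27, the exception being the fit without untreated HP replicate 2. Cish was called in 20 fits, and not without FLK1+ replicate 2, nor without either untreated array of FLK1+ 5h, HE1 or HP. Socs2 was called in 14, and not without either array of FLK1+, of untreated or DOX d1 BC, of untreated HE1 or of untreated HP, nor without replicate 1 of untreated FLK1+ 5h or HE2 or replicate 3 of SM. Over all alternatives the adjusted p of this test ran from 0.00166 to 0.497 for Stat3, 0.00237 to 0.0707 for Stat5a, 0.000611 to 0.145 for Socs2, 0.00127 to 0.112 for Cish and 0.00149 to 0.213 for Socs3. The number called was 1 without untreated HP replicate 2, and 2 without FLK1+ replicate 2, untreated FLK1+ 5h replicate 1, either untreated HE1 array or untreated HP replicate 1. No single step between successive populations called a member in limma's test, against 3.21% of genes for FLK1+ to FLK1+ 5h, 1.72% for FLK1+ 5h to d1 BC, 0.269% for d1 BC to SM, 3.67% for d1 BC to HE1, 2.72% for HE1 to HE2 and 0.00395% for HE2 to HP. At an unadjusted p under 0.05 these steps gave 1, 0, 0, 4, 1 and 0 of the 9, against 15.9%, 11.3%, 6.44%, 18.1%, 10% and 6.49% of all genes.

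Stat3 codes for the main STAT of the gp130 receptors. Its levels were 2.12 and 2.07 on the FLK1+ arrays, 3.05 and 2.11 in untreated FLK1+ 5h, 2.51 and 2.24 in d1 BC and 2.11, 4.02 and 2.83 in SM. HE1 had 4.27 and 4.55, HE2 had 5.24 and 4.17, and HP had 4.34 and 4.61. Every array of HE1, HE2 and HP was above every array of the other untreated populations, and these 3 did not differ beyond their spread (means 4.41, 4.70 and 4.47). The F test gave an adjusted p of 0.0160. From d1 BC to HE1 the level was 2.03 ± 0.68 (SE) higher, or 4.09-fold, with an unadjusted p of 0.0076 and an adjusted p of 0.109 in limma. The early and late populations lay on different slides, and with the slide as a block the step was 0.75 ± 0.67 and the F test gave an adjusted p of 0.450. The only population on slides of both kinds was SM, where untreated Stat3 read 2.11 on slide A, 2.83 on slide E and 4.02 on slide B. On slides E and B, HE1 read 4.27 and 4.55, above SM of the same slide. Over all 27 arrays the slide alone accounted for 85.1% of the sum of squares of Stat3 and the group for 80.1%, against medians of 50.5% and 57.8% over the 15923 genes above background on all arrays, and population and slide cannot be told apart for the step from d1 BC to HE1, which share no slide. A second Stat3 probe, for another RefSeq transcript, correlated with the first at r = 0.15 over the 27 arrays and gave an adjusted p of 0.497 in the F test.

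Stat5a was lowest in the early cultures and highest in HP. It read -0.51 and -0.71 in FLK1+ cells, -0.59 and -1.06 in FLK1+ 5h, -1.18 and -1.22 in d1 BC and -0.39, 0.29 and -0.89 in SM. The HE1 arrays read 0.26 and 0.52, the HE2 arrays 0.42 and 1.85, and the HP arrays 1.72 and 2.35. The order of means was d1 BC, FLK1+ 5h, FLK1+, SM, HE1, HE2 and HP, and only d1 BC and the next in order did not overlap. Stat5a was the member with the lowest adjusted p in the F test, 0.0107, and kept its call with the slide as a block (adjusted p = 0.0184) but not with median scaling (0.0670). On slide B it went from 0.52 in HE1 to 1.85 in HE2 and 2.35 in HP, and on slide E from 0.26 to 0.42 and 1.72, an order shared by both slides, although neither step was called. Stat5b was present at a more even level. Its untreated means ran from 1.54 in FLK1+ 5h to 2.88 in HP, the HP arrays (2.58 and 3.19) lay above those of HE1 (2.05 and 2.19), and the F test gave an adjusted p of 0.731.

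The 3 STAT genes are neighbours on chromosome 11 (GRCm38.p6, Stat5b at 100780731 to 100859004, Stat5a at 100859351 to 100885169 and Stat3 at 100886806 to 100939594). Stat5a and Stat5b followed each other closely, with r = 0.82 over 27 arrays and 0.97 over the deviations of the arrays from their group means, as a description over arrays that share slides. The 2 proteins are close paralogs, and whether their probes cross-hybridise was not tested. Deviations of Stat3 from its group means correlated with those of Stat5a at r = 0.51. In 28 of the 36 pairs of members, those without Pim1, the deviations correlated positively (0.49 to 0.97), and Pim1 correlated negatively with each of the other 8 (-0.57 to -0.81).

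Jak2 codes for the kinase bound to the receptors of erythropoietin and IL-3. Its untreated means ran from 1.18 in FLK1+ cells to 2.63 in HP, neighbours in the order overlapped throughout, and the F test gave an adjusted p of 0.6. Slide B arrays read 2.54 to 3.3 whatever the population, against 1 to 1.98 on slide A and 1.23 to 3.03 on slide E.

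The feedback genes showed patterns of their own. Socs2 was highest in FLK1+ cells at 2.00 and 2.15, and read 1.02 and 0.20 in FLK1+ 5h, and -0.27 and -0.77 in d1 BC. SM had -0.60, 1.29 and 0.21, the HE1 arrays 1.06 and 0.97, those of HE2 -0.73 and 0.14, and those of HP -0.82 and -1.14. Both FLK1+ arrays were above every other untreated array, and HP lay at the bottom. The F test gave an adjusted p of 0.0389, with 0.00142 when the slide was a block and 0.0539, past the threshold, when the replicate number was. All 3 Socs2 probes were called by this test on their own (adjusted p of 0.00609 to 0.0435), and the other 2 correlated with the first at r = 0.94 and 0.86. From FLK1+ to FLK1+ 5h Socs2 was 1.47 ± 0.70 (SE) lower, with an unadjusted p of 0.051 and an adjusted p of 0.316 in limma, and within slide A it was 1.88 lower.

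Socs3 was lowest in FLK1+ cells, where Socs2 was highest. It read 0.20 and 0.19 in FLK1+ cells, 2.49 and 1.44 in FLK1+ 5h, and 2.50 and 1.80 in d1 BC. In SM the values were 2.58, 4.47 and 3.18, in HE1 they were 3.01 and 4.03, in HE2 1.65 and 2.62, and in HP 1.98 and 3.03. The FLK1+ arrays were below all others, and SM and HE1 were highest and overlapped. The range of its group means, 3.95 over the 13 groups, was the widest among the members after that of Stat5a at 4.06. From FLK1+ to FLK1+ 5h Socs3 was 1.77 ± 0.85 higher, or 3.42-fold, with an unadjusted p of 0.0504 and an adjusted p of 0.315. From HE1 to HE2 it was 1.38 ± 0.85 lower (adjusted p = 0.740), and since HE1 and HE2 shared slides B and E, the same difference had a standard error of 0.33 with the slide as a block, and Socs3 was called lower (adjusted p = 0.0210). With the slide as a random block the standard error was 0.44 and Socs3 was not called (adjusted p = 0.0702).

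Cish was lowest in HP and highest in HE1. The FLK1+ arrays read -0.30 and -0.93, those of FLK1+ 5h 0.89 and 0.88, and those of d1 BC 0.47 and -0.36. SM had 0.58, 0.38 and -0.32, HE1 had 0.98 and 1.65, HE2 had -0.41 and -0.48, and HP had -0.96 and -0.84. HE1 stood above all other untreated arrays, and FLK1+ 5h above those of FLK1+, d1 BC, SM, HE2 and HP. The F test gave an adjusted p of 0.0290, and 0.00386 with the slide as a block. From FLK1+ to FLK1+ 5h the level was 1.5 ± 0.53 (SE) higher (2.83-fold, unadjusted p = 0.0105, adjusted p = 0.149), and from d1 BC to HE1 1.26 ± 0.53 higher (adjusted p = 0.212). From HE1 to HE2 it was 1.76 ± 0.53 lower, or 3.38-fold, with an adjusted p of 0.0941. With the slide as a block the standard error was 0.36 and Cish was called lower (adjusted p = 0.00877, 0.00531 with the slide as a random block, and 0.00531 to 0.542 over all alternatives). That fit called 2 of the 9 members, Cish and Socs3, at a step where it called 6.62% of all genes. Socs2 was 1.31 ± 0.46 lower in it and missed the threshold (adjusted p = 0.118). Without a slide term its other 2 probes gave smaller differences, -0.89 ± 0.58 and -0.79 ± 0.52, against -1.31 ± 0.70 for the first.

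Each of the 3 genes was lower in HE2 than in HE1 on both slides. On slide B Cish went from 1.65 to -0.48, Socs3 from 4.03 to 2.62 and Socs2 from 0.97 to 0.14. On slide E Cish went from 0.98 to -0.41, Socs3 from 3.01 to 1.65 and Socs2 from 1.06 to -0.73. At this same step the sum of hematopoietic markers was higher and those of smooth muscle and fibroblast markers were lower, as given above. Of 8 myeloid markers, 4 were above background on all HE1 arrays and 7 on all HE2 arrays, so some of the 7 tested entered through HE2 alone. Spi1 and Fcgr3 were above background on no HE1 array. Of the 7 tested 6 were higher, with a median of 3.45 against 0.06 over all genes, values that this filter partly sets. Mpo was called higher with and without the slide as a block. The part of these markers in the differences was not tested. From HE2 to HP the differences were -0.46 ± 0.53 for Cish, -0.68 ± 0.70 for Socs2 and 0.37 ± 0.85 for Socs3, and that of Cish was 0 with median scaling. With the slide as a block their errors were 0.36, 0.46 and 0.33, and limma called none (adjusted p of 0.507, 0.437 and 0.563). Each had the same sign on slides B and E.

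**Figure D2:**
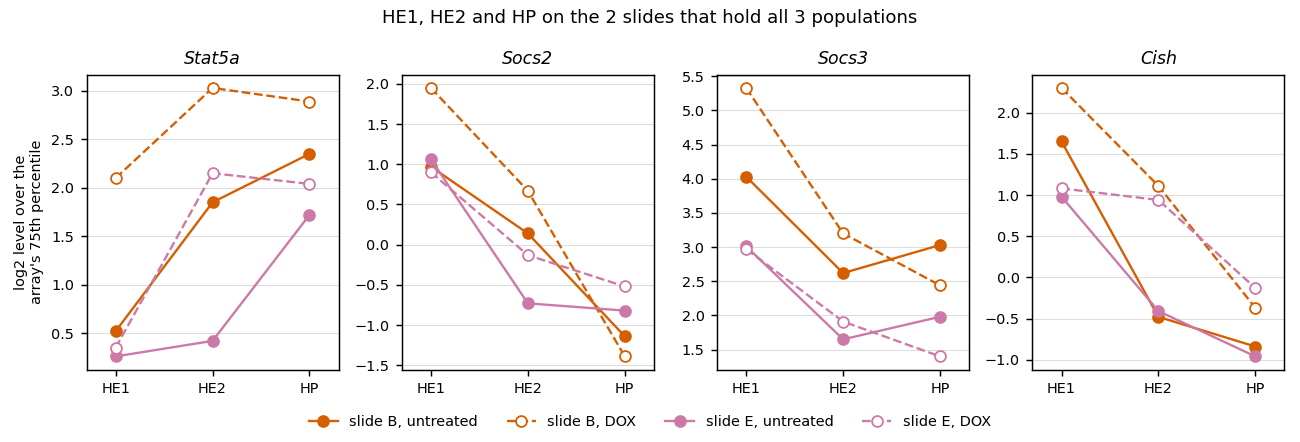
Level of Stat5a, Socs2, Socs3 and Cish (log2 over the array's 75th percentile) in HE1, HE2 and HP on slides B and E, the 2 slides that hold all 3 populations; solid lines and filled points are untreated, dashed lines and open points DOX. Untreated Cish goes from 1.65 and 0.98 in HE1 to -0.48 and -0.41 in HE2 on slides B and E, where its DOX arrays read 1.11 and 0.94.

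Socs1, which inhibits JAK kinases directly, varied more between arrays of a group than any other member (pooled SD 1.11 over the 13 groups, against 0.48 to 0.89 for the rest). It was highest in untreated FLK1+ 5h at 2.17 and 0.53, these 2 on different slides, and the F test gave an adjusted p of 0.748. Pim1 was highest in FLK1+ 5h (0.80 and 0.87) and lowest by mean in HE2 (-1.12 and -0.33), with an adjusted p of 0.511.

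DOX called none of the 9 genes in any of the 6 populations in limma's test, in which adjusted p-values of the 54 differences ran from 0.523 to 1 and standard errors from 0.48 to 1.02. Of all genes it called 0.00421% in FLK1+ 5h, 0.021% in SM, 0.00415% in HE2 and 0.0398% in HP, and 0% in both d1 BC and HE1, that is 1, 5, 1, 10, 0 and 0 genes. At an unadjusted p under 0.05 it gave 5.51% of genes in FLK1+ 5h, 2.77% in SM, 9.43% in HE2, 3.81% in HP, 1.59% in d1 BC and 1.33% in HE1. Of the 54 differences of the members 4 had an unadjusted p under 0.05, of which 3 of 9 were in HE2 and 1 of 9 in HP. Averaged over the 6 populations no member was called (0.223% of genes called), nor by the F test for any DOX effect (0.046%), nor by the F test for a DOX effect that differed between populations (0%). Of the 9 genes, DOX and untreated arrays did not overlap for 2 genes in FLK1+ 5h (Cish and Pim1), 1 in d1 BC (Socs2), 0 in SM and HE1, 4 in HE2 (Cish, Socs1, Stat5a and Stat5b) and 3 in HP (Cish, Jak2 and Pim1). Over all genes the shares were 34.8%, 28.2%, 10.5%, 17.2%, 34.3% and 39.9%, against 22.2% (2 of 9), 11.1%, 0%, 0%, 44.4% and 33.3% of the members.

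The values with an unadjusted p under 0.05 in HE2 were those of Cish, Stat5a and Stat5b, all higher with DOX. Cish read -0.41 and -0.48 in untreated HE2 and 0.94 and 1.11 with DOX, a difference of 1.47 ± 0.53 (SE), or 2.77-fold (unadjusted p = 0.0121, adjusted p = 0.523). The groups did not overlap, and the difference was 1.35 on slide E and 1.59 on slide B. With the slide as a block the adjusted p was 0.0830, and over all alternatives it ran from 0.0761 to 1. In HP Cish was higher with DOX on both slides as well, by 0.83 and 0.46, and in d1 BC it was lower on both, by 0.58 and 0.79. The F test for DOX effects that differ between populations gave an unadjusted p of 0.17 for Cish, and 0.021 with the slide as a block, with an adjusted p of 1 in both.

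Stat5a read 0.42 and 1.85 in untreated HE2 and 2.15 and 3.03 with DOX, a difference of 1.46 ± 0.67 (unadjusted p = 0.0442). Stat5b read 1.25 and 2.73 against 3.09 and 3.94, a difference of 1.52 ± 0.68 (unadjusted p = 0.0390), and both had an adjusted p of 0.523. Within slides B and E the differences of Stat5a were 1.18 and 1.74 and those of Stat5b 1.2 and 1.84. Untreated HE2 replicate 1 is the array with the lowest 75th percentile of signal, and without it the differences were 0.74 and 0.78, and without replicate 2 they were 2.18 and 2.26. Those of Cish were 1.5 and 1.43. The median gene was 0.11 higher with DOX in HE2 in this scaling and 0.63 higher with median scaling. Socs1 was 1.19 ± 1.02 higher in HE2 without overlap. Stat3 differed by -0.18 ± 0.68 and changed sign between scalings, with 0.34 under median scaling and -0.61 under quantile normalization. Summed hematopoietic markers were 59.1 to 69.9 in untreated HE2 and 73.1 to 99.5 with DOX, while by gene 3 of 5 were higher and 2 lower (median 0.03 against 0.11 over all genes). Summed myeloid markers were 39.7 to 127 and 51.5 to 65.8, a sum that the brightest genes, Mpo and Itgam, carry for the most part. Of 7 tested myeloid markers 6 were lower with DOX, with a median difference of -1.54 against 0.11 over all genes, and 0 were called. In this list 7 genes were above background on all untreated HE2 arrays and 5 on all DOX arrays. Some thus entered through the untreated group alone, which partly sets the count and the median. Of 5 tested erythroid markers 4 were higher (median 0.66), of 5 endothelial markers 4 were lower (median -0.68), and none was called. Of the erythroid list 4 genes were above background on all untreated arrays and 5 on all DOX arrays. The part of these markers in the values was not tested.

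**Figure D3:**
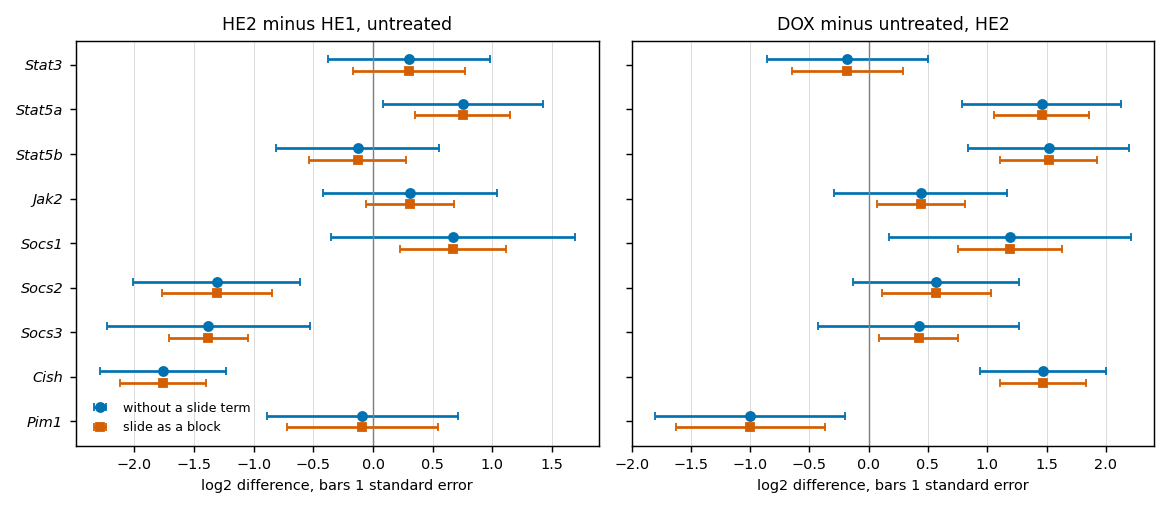
Log2 difference of each gene with its standard error (horizontal axis), for HE2 minus HE1 in untreated cells (left) and for DOX minus untreated in HE2 (right), fitted without a slide term (circles) and with the slide as a block (squares). The block leaves the values in place and narrows the errors, for Cish from 0.53 to 0.36.

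Pim1 had the lowest unadjusted p in the average over the populations, and was lower with DOX. In HP it read 1.09 and 0.01 untreated and -1.67 and -1.45 with DOX, with no overlap, a difference of -2.11 ± 0.80 (SE), or 4.32-fold lower (unadjusted p = 0.0171, adjusted p = 0.982, and 0.194 to 1 over all alternatives). The average over the 6 populations was -1.02 ± 0.32, or 2.02-fold lower (unadjusted p = 0.00557, adjusted p = 0.338). Within slides Pim1 was lower with DOX in 10 of 11 pairs of arrays, down to -2.75 in HP on slide E, and higher in 1, HE2 on slide E, by 0.52. On slide B it was lower in SM, HE1, HE2 and HP (-1.3, -0.98, -2.52 and -1.46). On slide E HE1 differed by -0.03. With the slide as a block the average was -0.93 ± 0.27 (adjusted p = 0.125, and 0.0606 to 0.716 over all alternatives). In HP the median gene was 0.29 higher with DOX, and 6 of 8 myeloid markers were lower, with a median of -2.53 and none called. On average over the populations 7 of 8 were lower (median -0.84), and their part in the values of Pim1 was not tested.

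The averages of the other 8 genes lay between 0.11 ± 0.27 (Stat3) and 0.49 ± 0.28 (Stat5b), against a median of 0.14 over all genes, with adjusted p-values of 0.609 to 0.882. The second Stat3 probe, above background on all 27 arrays, had the opposite sign, with an average of -0.90 ± 0.36 (unadjusted p = 0.0230, adjusted p = 0.542) and differences of -1.25 ± 0.90 in HE2 and -1.48 ± 0.90 in HP, none of them called. For Socs2 the first probe averaged 0.40 ± 0.28 and the other 2 probes 0.14 ± 0.24 and -0.02 ± 0.21. Within slides Stat5a, Jak2 and Cish were each higher with DOX in 9 of 11 pairs, Stat5b and Socs2 in 8, Stat3 and Socs3 in 7 and Socs1 in 6. The pairs share slides and populations and the counts are a description. Slides differed in size and sign within a population: on slide B Stat5a was higher by 0.89 in SM and 1.58 in HE1, against -0.30 on slide A in SM and 0.09 on slide E in HE1. Socs1 in SM differed by 0.33 on slide B and by -0.87 on slide A. Socs3 differed by 1.29 in HE1 on slide B and by -0.59 in HP on each slide.

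**Figure D4:**
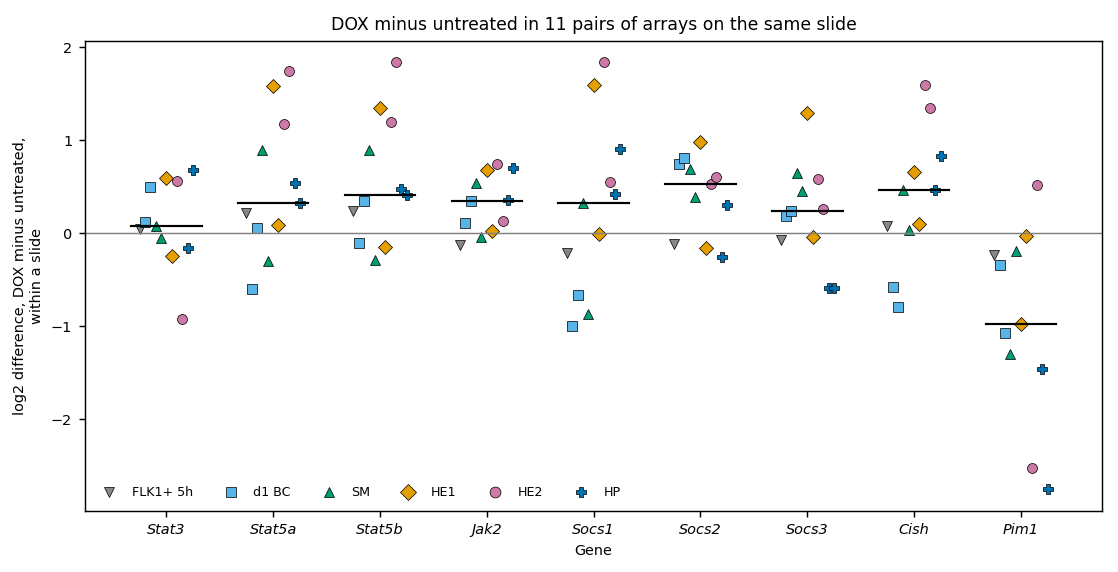
Difference between DOX and untreated arrays of the same population on the same slide (vertical axis, log2) for each gene (horizontal axis), 11 pairs a gene, with the median as a bar; symbols give the population. Pim1 lies below 0 in 10 of 11 pairs with a median of -0.98, and the medians of the other genes lie between 0.08 and 0.53.

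The wider pathway was described by 6 lists with 53 genes in all, which were chosen with earlier results of these data known. In the steps, limma called 3 of 45 tested genes higher from FLK1+ to FLK1+ 5h, 1 higher and 1 lower of 45 from FLK1+ 5h to d1 BC, 0 of 47 from d1 BC to SM, 6 of 49 higher from d1 BC to HE1, 4 of 48 higher and 1 lower from HE1 to HE2, and 0 of 50 from HE2 to HP. The shares of all genes called in either direction at these steps were, as above, 3.21%, 1.72%, 0.269%, 3.67%, 2.72% and 0.00395%. In the 6 DOX comparisons it called 0 of 44 to 49, and in the average over populations 2 of 51 lower, against 0.223% of all genes. The F tests across untreated populations given below for each list stand against 19.3% of all genes, and 19.8% with the slide as a block.

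Among ligands of gp130 receptors, Il11 rose 13.9-fold from FLK1+ (-2.22 and -2.41) to FLK1+ 5h (1.87 and 1.1), a log2 difference of 3.80 ± 0.73 (SE, adjusted p = 0.00719), and fell by 3.26 ± 0.73 on the log2 scale by d1 BC (adjusted p = 0.0274, and -3.43 ± 0.80, adjusted p = 0.0646, with the slide as a block). Cntf rose 3.64-fold at the first step (1.86 ± 0.45, adjusted p = 0.0279, and 1.63 ± 0.45, adjusted p = 0.0820, with the slide as a block). Il6 was above background on 10 of 27 arrays only, in a culture to which IL-6 protein was added. Of 7 tested ligands the F test across untreated populations called 3, Cntf, Il11 and Il6, and with the slide as a block it also called 3, with Cntf lost (adjusted p of 0.0477 and 0.0713) and Ctf1, which codes for cardiotrophin-1, gained (0.183 and 0.0231).

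Of the gp130 receptor genes, one specific chain rose and another fell from HE1 to HE2. Il6ra, the specific chain for IL-6, rose 4.79-fold from FLK1+ to FLK1+ 5h (2.26 ± 0.49, adjusted p = 0.0165) and 10-fold from HE1 (-0.55 and -0.69) to HE2 (2.63 and 2.78), a difference of 3.33 ± 0.49 (adjusted p = 0.00109). Lifr, the specific chain for LIF, fell 8.98-fold at the latter step, from 3.03 and 3.98 to -0.14 and 0.81 (-3.17 ± 0.72, adjusted p = 0.0198). Both kept their call with the slide as a block. Il6st, which codes for gp130 itself, was above background on all arrays, and the F test called 3 of the 5 receptors, Il6ra, Lifr and Il11ra1. With the slide as a block it called 4, these and Osmr, the oncostatin M receptor (adjusted p of 0.0834 and 0.0178). Il11ra1, the specific chain for IL-11, was called with the block only at 2 steps, lower from FLK1+ to FLK1+ 5h (-1.94 ± 0.45, adjusted p = 0.0433) and higher from there to d1 BC (2.25 ± 0.48, adjusted p = 0.0425). With DOX Il6ra was lower in 9 of 11 pairs within slides (median -1.03) and Il11ra1 was higher in 11 of 11 (median 0.66), and no member of the list was called.

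Among receptors that signal through JAK2 and STAT5, some rose from step to step. Csf2rb, the common beta chain of the GM-CSF, IL-3 and IL-5 receptors, rose 5.63-fold from FLK1+ 5h to d1 BC (2.49 ± 0.58, adjusted p = 0.0343, and 2.42 ± 0.72, adjusted p = 0.160, with the slide as a block). From d1 BC to HE1 Csf2rb rose 12.3-fold, its mouse relative Csf2rb2, used by IL-3, 12.5-fold and Epor, the erythropoietin receptor, 3.87-fold (adjusted p of 0.00183, 0.00136 and 0.0198), and with the slide as a block these were not called, d1 BC and HE1 sharing no slide (0.129, 0.0555 and 0.183). The log2 difference was 3.65 ± 0.56 without and 3.79 ± 0.83 with the block for Csf2rb2, 3.62 ± 0.58 and 2.74 ± 0.79 for Csf2rb, and 1.95 ± 0.45 and 1.36 ± 0.46 for Epor. From HE1 to HE2 Csf2rb rose 5.37-fold (adjusted p = 0.0284, and 0.0180 with the block), from 1.24 and 1.59 to 3.74 and 3.94. At this step 4 of 8 tested receptors of the list were higher and 4 lower, and Ghr, the growth hormone receptor, was 1.63 lower on the log2 scale (adjusted p = 0.0747), and was called lower with the block (standard error 0.33, adjusted p = 0.00835). Csf2rb and Csf2rb2 are near-identical neighbouring genes whose probes may share signal. The F test called 5 of 8 tested receptors of this list, among them Csf2rb, Csf2rb2, Ghr and Epor, and Epor lost its call with the block (adjusted p of 0.0101 and 0.0565).

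The genes called in the average DOX effect were Csf2rb and Csf2rb2. Csf2rb was 2.37-fold lower (-1.24 ± 0.23, adjusted p = 0.0293, and 0.0390 with the slide as a block), lower in 10 of 11 pairs within slides, with 5.23 and 4.94 in untreated HP against 3.37 and 2.51 with DOX. Csf2rb2 was 2.23-fold lower (-1.16 ± 0.23, adjusted p = 0.0369, and 0.0562 with the block) and lower in all 11 pairs. In d1 BC with DOX, Csf2rb was well above background on 1 of 2 arrays, as was Csf2rb2 in FLK1+ 5h with DOX. Neither was called in a single population. Of the 8 myeloid markers 7 were lower with DOX on average over the populations (median -0.84 against 0.14 over all genes). In HP 6 of 8 were lower with a median of -2.53 against 0.29, although their sum, most of which is Mpo, was 95.6 to 105 untreated and 98.6 to 131 with DOX. In HE1 the sums were 45.3 to 65.1 and 27.6 to 48, and 3 of 4 tested were lower (median -0.28 against 0.09). Without a slide term none of these markers was called in these comparisons, and with the slide as a block Cebpa, a myeloid transcription factor, was called lower in the average over populations (-1.05 ± 0.20, adjusted p = 0.0397). Their part in the values of Csf2rb and Csf2rb2 was not tested.

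**Figure D5:**
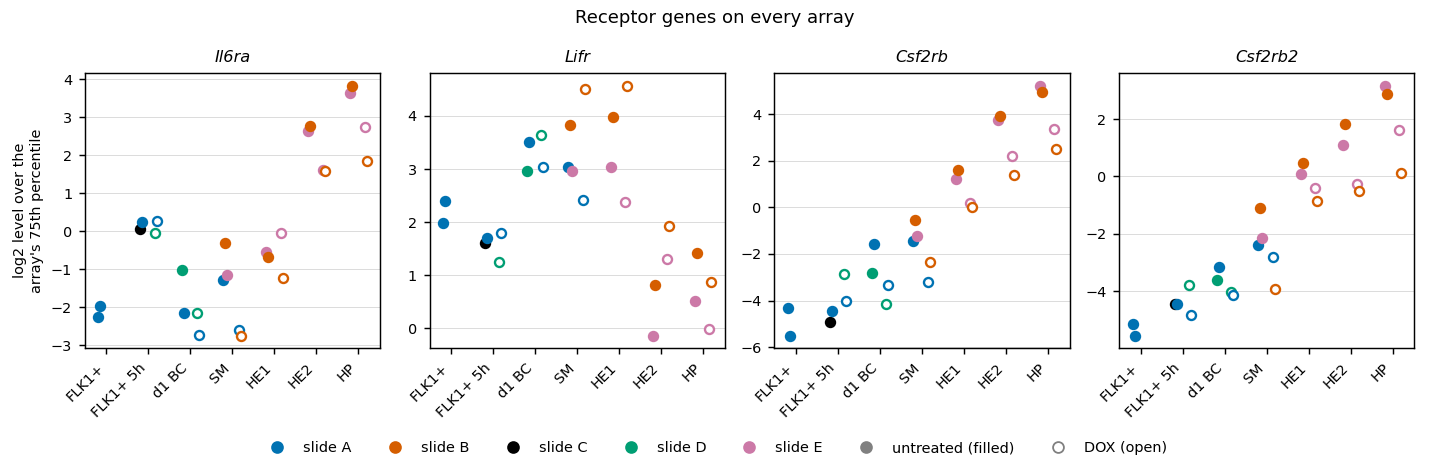
Level of the receptor genes Il6ra, Lifr, Csf2rb and Csf2rb2 on every array (log2 over the array's 75th percentile, vertical axis) by population (horizontal axis), with untreated points filled, DOX points open and the slide as colour. Untreated Il6ra and Csf2rb rise and Lifr falls from HE1 to HE2, and the DOX arrays of Csf2rb and Csf2rb2 lie below the untreated ones in HE1, HE2 and HP.

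Of the other JAK and STAT genes the F test called 4 of 7, among them Jak3, Stat2 and Stat4, and with the slide as a block it called 1, Jak3 (adjusted p of 0.124 for Stat2 and 0.0752 for Stat4). From d1 BC to HE1 Jak3, the kinase of the common gamma chain receptors, rose 5.89-fold and Stat4, the STAT of the IL-12 receptor, at least 15.3-fold (adjusted p of 0.00549 and 0.0281). For Stat4 neither d1 BC array was well above background, so the fold is taken against the dimmest probe that was. Neither gene was called with the slide as a block (0.114 and 0.314), where the log2 difference of Jak3 went from 2.56 ± 0.48 to 2.42 ± 0.66 and that of Stat4 from 4.62 ± 1.14 to 2.93 ± 1.31. Of 13 other negative regulators the F test called 2, Ptpn6 and Sh2b3, and Sh2b3 lost its call with the block (adjusted p of 0.0344 and 0.199). Ptpn6, which codes for the phosphatase SHP-1 of blood cells, rose 12.4-fold from HE1 to HE2 (3.63 ± 0.49, adjusted p = 0.000637, and 0.000403 with the block). Of 12 other STAT targets it called 4, Bcl6, Ccnd1, Pim2 and Pim3, and no single step called any. With the block the F test called 3, of which Bcl6 was called in both fits, and Ccnd1, Pim2 and Pim3 had adjusted p-values of 0.0850, 0.0994 and 0.0848. The other two were Bcl3 and Myc (0.0427 and 0.0053). Bcl6, a transcriptional repressor, was 3.13 ± 0.87 (SE) higher in HE2 than in HE1 (adjusted p = 0.0651), and was called higher with the block (standard error 0.62, adjusted p = 0.00751). The medians of this last list under DOX lay between -0.93 in HP, where 11 of 12 were lower, and -0.02 in HE1, against medians of 0.29 and 0.09 over all genes.

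For each member up to 3 of the genes with the highest Pearson r to its 13 group means are named, from 10669 named genes above background on all arrays. They were S100a13, Ackr1 and Tnip2 for Stat3 (r = 0.998, 0.984 and 0.983), Gid4, Ropn1l and Dennd4b for Stat5a (0.987, 0.985 and 0.985), and Naxd, Top3b and Cntrl for Stat5b (0.973, 0.973 and 0.972). For Jak2 they were Lgals4, Ubn2 and 1700010I14Rik (0.972, 0.947 and 0.940). Those of the feedback genes were less alike, with C77080 and Acrbp for Socs1 (0.887 and 0.884), Ddx25, Cbs and Etv1 for Socs2 (0.938, 0.936 and 0.929), Tdrd7, Dync1li2 and Spag9 for Socs3 (0.915, 0.915 and 0.911), Enc1, Cd82 and Ralgds for Cish (0.908, 0.899 and 0.884) and Gmip, Nfkb2 and Fbxw2 for Pim1 (0.922, 0.915 and 0.913). The group means share slides, and the share of the sum of squares that went with the slide was 57.5% to 85.1% for the STAT genes and Jak2, 58.1% for Socs1, 51% for Socs3, 44% for Pim1, 14.8% for Cish and 6.5% for Socs2.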

How the data were processed

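RNA of 27 samples in 13 groups was measured on 1-colour Agilent arrays. The deposited scanner files hold, per spot, the intensity that the authors obtained with Agilent Feature Extraction (10.7.1.1 in the submitters' processing notes, 10.7.3.1 in the file header), background-subtracted and detrended, with low values replaced by a positive surrogate and no scaling between arrays. The authors' processed table holds log2 values normalized between arrays. The submitters' notes name limma, and the method is not given in the sources used here. It served as an alternative, and all 27 of its columns followed their own array most closely.

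Of 62976 spots, 3671 were controls, and 55681 further probes were read, 26582 of them with a symbol through the RefSeq accession (annotation of GRCm38.p6). Outlier spots were removed and spots of a probe averaged, the signal was taken to log2, the array's 75th percentile was subtracted, and the probe with the highest mean stood for a gene. No spot was saturated (0) and no 2 arrays were identical (0 pairs). In R 4.3.3, limma 3.58.1 (lmFit, eBayes) fitted the group means, with tables read by data.table, version 1.17.8, with 14 residual and 4.23 prior degrees of freedom, on 28314 genes. Tests were kept to genes detected above background on every array of 1 or more of the groups compared, and a call needed 2-fold and an adjusted p (Benjamini-Hochberg) under 0.05. The number of arrays limits the precision. The fit was also run on simulated data with known changes, which held no slide effect, and the outcome is not reported here. Figures were drawn with Python 3.11.15, numpy 2.4.6, pandas 2.3.3 and matplotlib 3.10.9.

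The titles number the replicates but do not say that DOX and untreated arrays of the same number are paired. Over genes, the difference between replicates 1 and 2 correlated between untreated and DOX arrays at 0.14 (FLK1+ 5h) to 0.84 (SM). Of the 12 same-numbered pairs 11 shared a slide. Alternatives were normexp background correction with an offset of 50, quantile and median scaling, the authors' processed values, 2 other filters, the mean of all probes, the replicate number or the slide as a block, a variance trend, fits of only the 2 groups compared, every probe on its own, and leaving out each array.

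Named were the 9 members, genes of the other lists that were called (at most 3 per list and comparison), the 3 genes most like each member, and Hprt. Where an F test called 4 or 5 genes of a list, those past the limit of 3 were named after their values were seen. The members and lists were chosen with earlier results of these data known. Some results that met this rule are not reported here.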

Additional observations from a re-analysis of the deposited data

How the results depend on the processing

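In all 38 or 39 alternatives run for it, none of the 9 genes was called in any of the 6 DOX comparisons, in the average DOX effect or in either F test on DOX. The members' differences with an unadjusted p under 0.05, that is 4 DOX differences, 6 steps and the average of Pim1, kept their direction in the 16 to 19 alternatives run for each, and 36 for the average. Of the 54 DOX differences, 41 had the same sign in the 5 scalings and sources of values compared, as did 44 of the 54 steps and 7 of the 9 averages, Stat3 and Socs3 being the exceptions among the averages. Median scaling shifts all genes of a comparison alike. Under it the median gene differed by -0.68 with DOX in FLK1+ 5h, against 0.01 in the main scaling. Some signs changed under it alone, such as that of Cish in FLK1+ 5h (-0.37, against 0.31). The number called by the F test across untreated populations, 4, was 2 with median scaling, 2 with no filter, 5 (Socs3 added) with quantile normalization, the authors' processed values and a variance trend, and 1 to 5 in the fits that left out 1 array. The replicate number as a block took Socs2 from that test (adjusted p = 0.0539) and changed no other call of a member. From FLK1+ to FLK1+ 5h, where none was called, the slide as a random block called 1, Socs2. From d1 BC to HE1, 1 was called with quantile normalization, 1 with the authors' processed values and 1 with the mean of all probes, each time Stat3. From HE1 to HE2, 1 was called with quantile normalization, 1 with the authors' processed values, 1 with the slide as a random block and 2 with the slide as a fixed block, Cish in each and Socs3 in the last. The causes were not tested. Without a slide term, and with 2 arrays a group, a 2-fold difference lies within 2 standard errors for every member.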
